A study of Mus musculus with 42 samples.

Results

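The 9 genes described here mark tuft cells, a rare chemosensory cell type of the gut epithelium. They are the transcription factor genes Pou2f3, Gfi1b and Spib, the kinase and adaptor genes Dclk1, Bmx and Sh2d6, the actin-binding protein gene Avil, the cytokine gene Il25 and the surface receptor gene Siglecf. They were taken by symbol out of 22180 measured mouse genes, each with 1 probe set that carried its symbol alone, and were followed through 42 arrays in 15 sample groups. A tuft cell senses luminal compounds through a taste-like cascade, in which a G protein activates phospholipase C and opens the cation channel Trpm5. It answers with acetylcholine, leukotrienes, prostaglandins and the cytokine encoded by Il25, which acts on innate lymphoid cells. Pou2f3 encodes the factor that tuft cells need to form, and Dclk1 is the marker most used to find them in mouse stomach and intestine.

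All samples were epithelium of healthy, untreated adult mice, at least 7 to 8 weeks old and not selected by sex. In the Lgr5-EGFP-IRES-CreERT2 line (IRES), green fluorescence from the locus of the Wnt target gene Lgr5 was used to sort bright (Lgr5Hi) and dim (Lgr5Lo) cells. Its pylorus, the outlet of the stomach, gave 4 Lgr5Hi, 4 Lgr5Lo and 2 whole-tissue arrays. Its small intestine gave 2 Lgr5Hi, 2 Lgr5Lo, 2 crypt arrays and 1 whole-tissue array. Its colon gave 3 Lgr5Hi, 3 Lgr5Lo and 2 whole-tissue arrays. The Lgr5-EGFP-DTR line (DTR), whose reporter also carries a diphtheria toxin receptor, gave 3 arrays each of pyloric Lgr5Hi, Lgr5Lo and unlabelled (Lgr5Neg) cells. The mouse model field of those 9 arrays names the IRES line, and their titles and descriptions, which name DTR, were followed. Wildtype pylorus (WT) was sorted with an antibody to the water channel Aqp5 into 4 Aqp5Pos and 4 Aqp5Neg arrays. The labels call bright cells stem cells, and no gate used a tuft cell marker. The labels number biological replicates without saying whether each came from its own animal. The p-values rest on the spread between these arrays within groups, pooled over all groups in a fit.

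Levels are log2 intensities, on which a difference of 1 is a doubling, and the median level per array lay between 3.82 and 4.25. Lgr5 followed its gates, at 8.73 ± 0.08 (SD, n = 3) in DTR Lgr5Hi, 6.59 ± 0.38 (n = 3) in Lgr5Lo and 4.60 ± 0.24 (n = 3) in Lgr5Neg cells. Epithelial keratin and adhesion genes averaged 8.57 to 10.67 on every array. The gene lists of B cells (at most 4.32), macrophages (4.39), eosinophils (2.96), megakaryocytes (4.48) and endothelium (3.90), cell types in which some of these 9 genes are also active, stayed near or below the median level. Mast cell genes averaged 2.38 to 5.16, highest in IRES pyloric Lgr5Lo cells, and M cell genes averaged 4.72 to 6.52, above the median on every array. 3 arrays went against their labels. The whole colon array numbered 1 carried the stomach surface genes Gkn1 at 13.12 and Muc5ac at 12.50, against 4.92 and 4.05 on the other whole colon array. The 2 arrays labelled crypt had Lgr5 at 4.81 and 5.04, below the 7.09 of the whole small intestine, with a cell cycle list mean of 6.93 and 6.25 against 8.10. They are called the arrays labelled crypt below.

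Each gene's place in the genome is given in GRCm38.p6 coordinates of RefSeq. Pou2f3 lies at chr9:43123927-43205755, Gfi1b at chr2:28609450-28621982 and Spib at chr7:44525995-44532087. Dclk1 lies at chr3:55242303-55539068, Sh2d6 at chr6:72513641-72534206 and Bmx at chrX:164192842-164258193. Avil lies at chr10:127000065-127020994, Il25 at chr14:54932695-54935837 and Siglecf at chr7:43351341-43359475. Pou2f3 encodes a POU factor that binds the octamer ATGCAAAT, and Spib encodes an ETS factor that binds purine-rich sites such as GAGGAAGT. Windows of 300 bases, 250 before and 50 after a transcript start, were read for 7 of the 9 genes (8 windows, Dclk1 having 2 starts). Such a start was not always the outer end of the gene, and the windows of Sh2d6 and Avil lie inside the spans given above. Neither word occurred on either strand in the 8 windows. Of the 32851 windows searched 1.74% held the octamer and 3.2% the ETS word, and at such shares 8 windows would mostly hold neither. A second search, chosen after that result, used the octamer without its last base, ATGCAAA, a word that every octamer contains. It found 1 of the 8 windows, that of Avil, against 4.63% of the windows searched. A match or its absence says nothing on whether a factor binds. The windows of the 2 genes that separated the gates by most in WT cells, Sh2d6 and Dclk1, and that of Avil, which varied with the organ, are shown 5′ to 3′ on the gene's own strand. They cover chr10:127000459-127000758 (plus strand) for Avil, chr6:72519987-72520286 (minus strand) for Sh2d6 and chr3:55242114-55242413 (plus strand) for the upstream start of Dclk1, and capitals mark ATGCAAA or its reverse complement.
Avil: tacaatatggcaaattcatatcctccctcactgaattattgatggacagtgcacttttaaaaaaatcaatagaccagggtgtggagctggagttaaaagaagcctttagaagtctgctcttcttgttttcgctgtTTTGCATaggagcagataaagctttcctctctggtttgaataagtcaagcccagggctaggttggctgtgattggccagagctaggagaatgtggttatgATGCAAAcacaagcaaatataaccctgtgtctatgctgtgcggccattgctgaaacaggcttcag
Sh2d6: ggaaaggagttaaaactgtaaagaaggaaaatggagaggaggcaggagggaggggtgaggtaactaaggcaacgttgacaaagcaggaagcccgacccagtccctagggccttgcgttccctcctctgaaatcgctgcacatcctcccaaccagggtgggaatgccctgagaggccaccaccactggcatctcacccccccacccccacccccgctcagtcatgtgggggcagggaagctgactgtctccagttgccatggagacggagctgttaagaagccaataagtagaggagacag
Dclk1: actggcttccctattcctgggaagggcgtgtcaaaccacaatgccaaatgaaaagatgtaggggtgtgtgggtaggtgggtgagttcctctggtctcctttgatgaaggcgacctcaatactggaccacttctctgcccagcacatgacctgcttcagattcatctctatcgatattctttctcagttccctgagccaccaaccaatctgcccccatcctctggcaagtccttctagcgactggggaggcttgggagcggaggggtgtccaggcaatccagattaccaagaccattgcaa
The Avil window holds the word on its own strand from 15 bases before the start and its reverse complement from 115 bases before it.

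The 9 genes differed in how much they varied. Sh2d6 had the widest range over the 42 arrays, 5.52 (from 3.70 to 9.23), followed by Dclk1 with 4.72 (3.93 to 8.66), Spib with 4.58 (2.59 to 7.17) and Avil with 4.10 (4.69 to 8.79). Pou2f3 spanned 3.38, Bmx 2.53 and Siglecf 2.49. Gfi1b (1.52) and Il25 (1.58) were nearly flat. DTR Lgr5Hi cells had the highest group mean for 7 genes. The others were Gfi1b, which was highest in IRES pyloric Lgr5Lo cells (5.73), and Avil, which was highest in whole pylorus (8.60). These ranks cross the lines without a test, and line and handling cannot be told apart. For each of the 7 genes the DTR Lgr5Hi arrays overlapped the next group. Most steps down the order of group means were smaller than the spread. Of 14 neighbouring pairs of groups per gene, the arrays were apart in 3 for Sh2d6 and in 2 each for Pou2f3 and Dclk1. They were apart in 1 each for Siglecf, Avil and Bmx, and in 0 for Gfi1b, Spib and Il25 (10 of 126 pairs in all). Each pair that was apart included a group of 1 or 2 arrays. The count was not made over all genes, so it sets no gene apart from the rest.

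**Figure D1:**
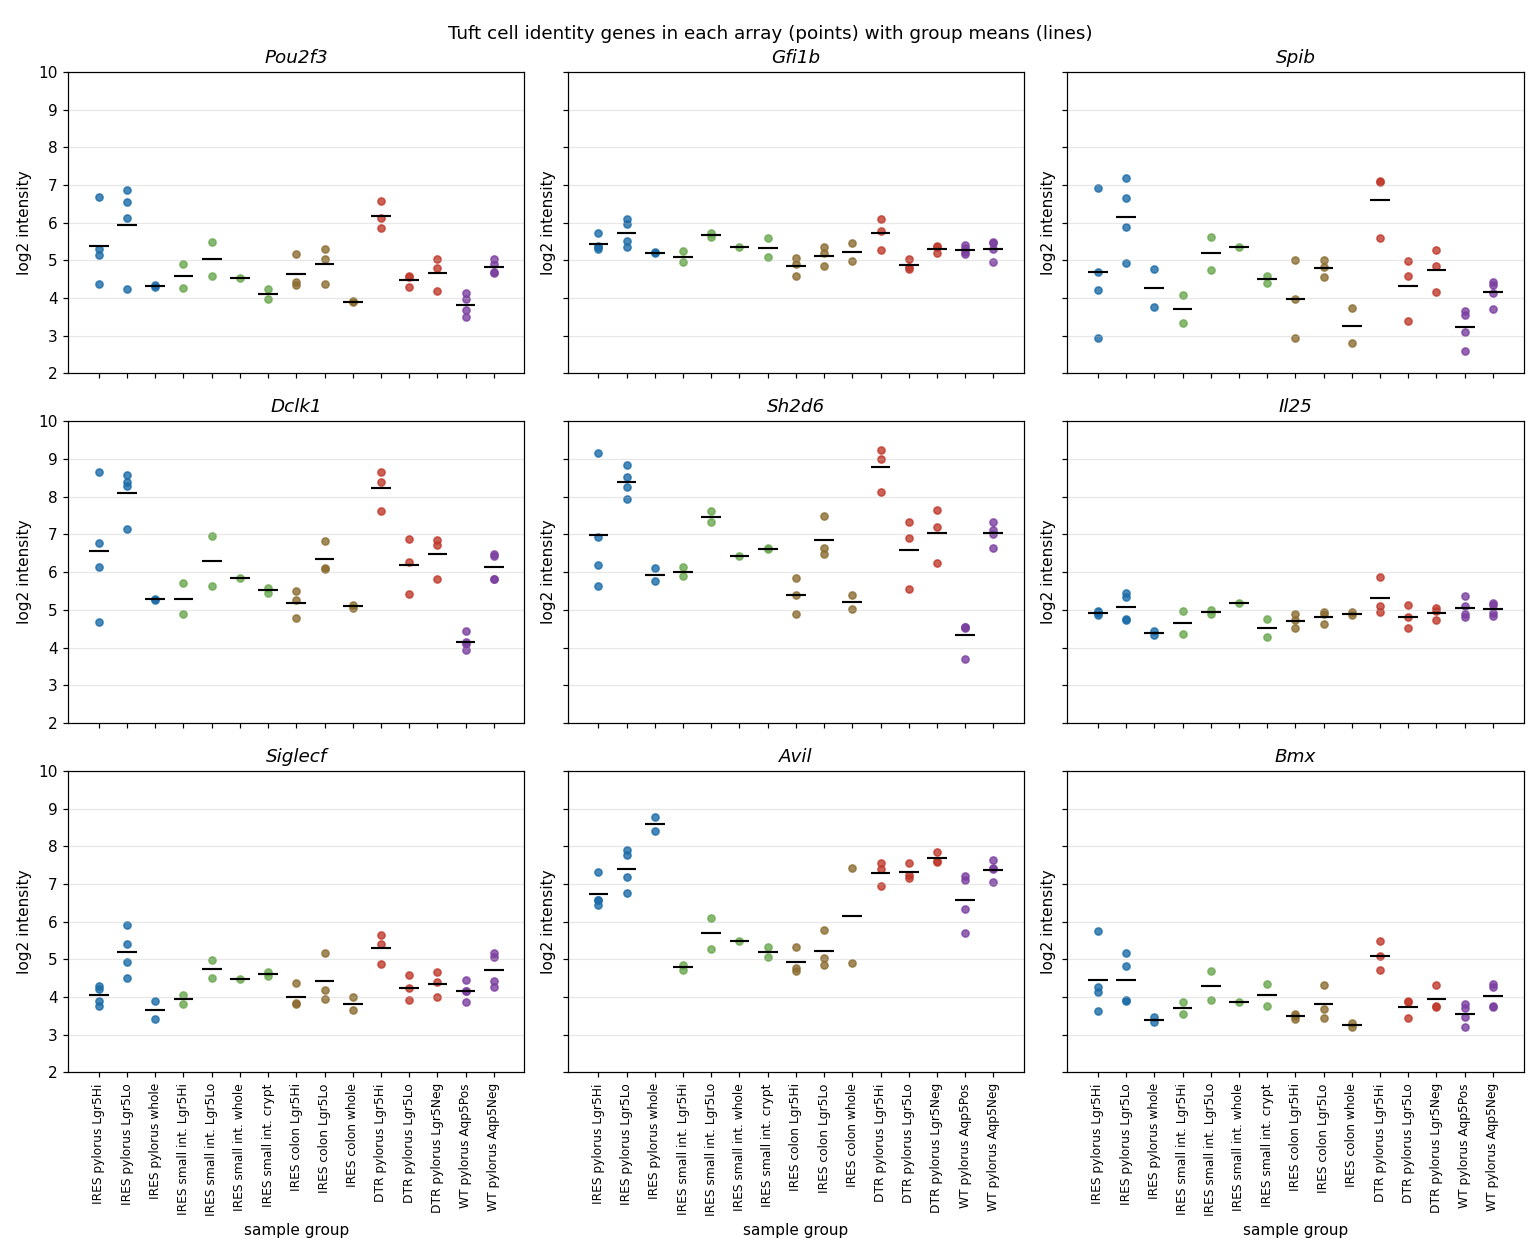
Log2 intensity (vertical axis) of the 9 tuft cell identity genes in the 15 sample groups (horizontal axis), 1 point per array and a line at each group mean, coloured by line and organ. Sh2d6 and Dclk1 are at least 7.62 on all DTR Lgr5Hi arrays and at most 4.55 on all WT Aqp5Pos arrays. Gfi1b and Il25 stay within 1.58, and Avil is highest in whole pylorus (8.40 and 8.79). Line and handling of arrays cannot be told apart.

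In the DTR pylorus, most of the 9 tuft cell genes were higher in the brightest Lgr5 reporter cells than in each of the other gates. Against Lgr5Lo cells 7 of the 9 genes rose and 0 fell, where 4.97% of all genes were called (2.02% higher), and the median difference of the 9 was 1.36 against 0.01 over all genes. Against Lgr5Neg cells 6 rose and 0 fell, where 18.3% of all genes were called (8.84% higher), with a median difference of 1.16 against 0.02. Both comparisons share the Lgr5Hi arrays. Calls here and below rest on an adjusted p under 0.05 from limma with Benjamini-Hochberg adjustment over all 22180 genes. In bulk samples, more cells of a type and more RNA per cell cannot be told apart.

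Among the transcription factors, Pou2f3 read 6.12, 5.85 and 6.58 on the DTR Lgr5Hi arrays, 4.57, 4.55 and 4.28 in Lgr5Lo and 5.03, 4.19 and 4.80 in Lgr5Neg cells. Every Lgr5Hi array lay above the 6 others. The difference was 1.72 ± 0.22 (SE) from Lgr5Lo, a 3.29-fold change (adjusted p = 0.00147, limma), and 1.51 ± 0.22 from Lgr5Neg cells (adjusted p = 0.000425). Spib, which encodes an ETS factor also used by B cells and M cells, read 7.08, 5.59 and 7.09 in Lgr5Hi, 4.97, 4.57 and 3.40 in Lgr5Lo and 5.26, 4.15 and 4.84 in Lgr5Neg cells. Again all Lgr5Hi arrays were highest, and the difference from Lgr5Lo cells was 2.27 ± 0.44, or 4.82-fold (adjusted p = 0.0112, limma). Gfi1b, a zinc finger repressor of blood and tuft cells, read 5.77, 5.27 and 6.10 in Lgr5Hi and 4.83, 4.77 and 5.04 in Lgr5Lo cells, a smaller step of 0.83 ± 0.19 (adjusted p = 0.023, limma). It read 5.37, 5.34 and 5.18 in Lgr5Neg cells, which overlapped Lgr5Hi (0.42 ± 0.19, adjusted p = 0.161).

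The kinase and adaptor genes all rose. Sh2d6, an SH2 domain adaptor, read 9.0, 8.13 and 9.23 in DTR Lgr5Hi, 7.34, 6.90 and 5.56 in Lgr5Lo and 7.19, 6.25 and 7.64 in Lgr5Neg cells. The Lgr5Hi arrays were apart from both, by 2.18 ± 0.44 (4.53-fold, adjusted p = 0.0132, limma) and 1.76 ± 0.44 (3.39-fold, adjusted p = 0.0128). Dclk1, a kinase with a microtubule-binding domain, read 8.65, 7.62 and 8.40 in Lgr5Hi, 6.88, 6.26 and 5.41 in Lgr5Lo and 6.85, 5.83 and 6.73 in Lgr5Neg cells. It too separated without overlap, by 2.04 ± 0.36 (4.11-fold, adjusted p = 0.00751, limma) and 1.75 ± 0.36 (3.36-fold, adjusted p = 0.00426). Bmx, a Tec family tyrosine kinase, was near the array median in Lgr5Lo cells (3.87, 3.91 and 3.44) and in Lgr5Neg cells (3.75, 3.77 and 4.31), and read 5.08, 4.73 and 5.50 in Lgr5Hi cells. Its differences were 1.36 ± 0.22 (adjusted p = 0.004, limma) and 1.16 ± 0.22 (adjusted p = 0.00214).

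Of the remaining DTR genes, only Siglecf rose. It encodes a sialic acid receptor known from eosinophils and tuft cells, and read 5.42, 4.87 and 5.66 in Lgr5Hi, 4.25, 4.59 and 3.92 in Lgr5Lo and 4.39, 4.01 and 4.66 in Lgr5Neg cells. The Lgr5Hi arrays were apart from both gates, by 1.06 ± 0.23 (adjusted p = 0.0198, limma) and 0.96 ± 0.23 (adjusted p = 0.0106). Il25 read 5.11, 4.94 and 5.86 in Lgr5Hi and 4.81, 4.51 and 5.14 in Lgr5Lo cells, which overlapped, with a difference of 0.48 (95% confidence interval -0.01 to 0.97, adjusted p = 0.295, limma). Avil, an actin regulator of the villin family, read 7.39, 6.95 and 7.57 in Lgr5Hi and 7.16, 7.55 and 7.23 in Lgr5Lo cells, also overlapping, with a difference of -0.01 (-0.39 to 0.37, adjusted p = 0.983). It read 7.86, 7.61 and 7.59 in Lgr5Neg cells, above every Lgr5Hi array, and the difference of -0.38 ± 0.18 was opposite in sign to that of the other 8 genes and was not called (unadjusted p = 0.0494, adjusted p = 0.171, limma).

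The dim and unlabelled DTR gates gave no called difference. Between Lgr5Lo and Lgr5Neg cells 0 of the 9 genes were called (limma, 2.2% of all genes called), 1 had an unadjusted p under 0.05, and all 9 differences were below 0, from -0.44 for Spib to -0.10 for Il25 and Siglecf. The arrays of Gfi1b did not overlap, at 4.83, 4.77 and 5.04 in Lgr5Lo against 5.37, 5.34 and 5.18 in Lgr5Neg cells (-0.42 ± 0.19, unadjusted p = 0.0446, adjusted p = 0.358, limma). Nor did those of Avil, whose Lgr5Lo values given above all lay under its Lgr5Neg values (-0.37 ± 0.18, adjusted p = 0.397). The median difference of the 9 was -0.29, and it was -0.05 without Lgr5Lo array 3, -0.19 without Lgr5Neg array 1 and -0.15 without Lgr5Neg array 3.

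Single arrays bear on several of these DTR calls. Without Lgr5Lo array 3, the lowest array for Spib and Sh2d6, 3 genes were called against Lgr5Lo cells in place of 7, where 1.47% of all genes were called in place of 4.97%, with Spib at an adjusted p of 0.0557, Sh2d6 at 0.0544, Siglecf at 0.106 and Gfi1b at 0.0593. Gfi1b also lost its call without Lgr5Hi array 1 (0.0636) or 3 (0.0714) and without Lgr5Lo array 1 (0.0611) or 2 (0.0953), and Siglecf without Lgr5Hi array 1 (0.0619) or 3 (0.0698). Against Lgr5Neg cells 3 genes were called without Lgr5Neg array 2, where 13.7% of all genes were called, and Spib came to 0.0513, Sh2d6 to 0.062 and Siglecf to 0.0557. Sh2d6 reached 0.0524 there without Lgr5Hi array 3, and Gfi1b gained a call (0.0177) without Lgr5Hi array 2. Pou2f3, Dclk1 and Bmx kept both calls whichever array was left out. The way the spread was estimated bears on them too. In 1 fit over all 42 arrays the differences were as large but only Sh2d6 of the 9 was called against Lgr5Lo cells, where 0.595% of all genes were called, with Pou2f3 at 0.0609, Dclk1 and Bmx at 0.0641, Gfi1b at 0.0551, Spib at 0.0835 and Siglecf at 0.116. In that fit Spib (0.0719) and Siglecf (0.0529) lost their calls against Lgr5Neg cells, where 6.83% of all genes were called. Gfi1b lost its call in a fit of the 2 gates alone (0.058), and Sh2d6 lost both under trend and robust settings of eBayes (0.0764 and 0.0775).

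Other tuft cell genes moved with these 9. Against Lgr5Lo cells 15 of 28 further tuft cell genes rose and 0 fell (median difference 0.97), and against Lgr5Neg cells 13 rose and 0 fell (0.77). All 4 measured genes of eicosanoid synthesis rose against Lgr5Lo cells, among them Alox5, the 5-lipoxygenase (2.18 ± 0.45, adjusted p = 0.0155, limma), and Hpgds, a prostaglandin D synthase (1.98 ± 0.37, adjusted p = 0.0093). Of 7 taste cascade genes 2 rose, the channel Trpm5 (1.77 ± 0.28, adjusted p = 0.00387) and the phospholipase Plcb2 (0.92 ± 0.22, adjusted p = 0.0289). Gnat3, the taste G protein, did not pass (1.09 ± 0.41, adjusted p = 0.169). Of 17 other tuft cell genes 9 rose, led by Inpp5d, an inositol phosphatase (1.50 ± 0.22, adjusted p = 0.00258), Sh2d7, another SH2 domain adaptor (1.99 ± 0.37), and Fyb, an adaptor of blood cells (1.94 ± 0.39). Of 24 measured relatives of the 9 genes, such as Gfi1, Spi1, Dclk2 and Btk, 0 were called in either comparison.

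Markers of other cells also differed between these gates. All 5 pit mucous cell genes, which mark the stomach surface, were lower in Lgr5Hi than in Lgr5Lo cells (median -3.22), and their mean level ran from 7.34 to 8.21 in Lgr5Hi, 10.81 to 11.24 in Lgr5Lo and 11.74 to 12.00 in Lgr5Neg cells. All 7 measured cell cycle genes were lower as well (median -1.40). Of 7 enteroendocrine genes 0 were called against Lgr5Lo cells, and Chga and Scg5 were higher against Lgr5Neg cells. 0 of 5 B cell, 0 of 5 eosinophil and 0 of 5 megakaryocyte genes were called in either comparison. Of 6 mast cell genes the protease gene Mcpt2 was lower against Lgr5Lo (-1.20 ± 0.17) and Lgr5Neg cells (-2.16 ± 0.17) and Mcpt1 against Lgr5Neg cells (-1.07 ± 0.25), with list means of 2.75 to 2.92, 2.93 to 3.08 and 3.22 to 3.41 in the 3 gates. Both genes differed in the direction opposite to the tuft cell genes. The macrophage gene Cd68 was lower as well, at a mean of 4.37 in Lgr5Hi and 5.37 in each of the other gates (adjusted p = 0.014 and 0.00356, limma), while the other 6 genes of its list were not called. The epithelial keratin genes Krt8 and Krt19 were lower against both gates, Krt19 by -1.60 ± 0.15 and -2.16 ± 0.15. Of 5 M cell genes 0 were called against Lgr5Lo cells and Pglyrp1 was higher against Lgr5Neg cells (0.75 ± 0.13). The part of these differences in the tuft cell gene differences was not tested.

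**Figure D2:**
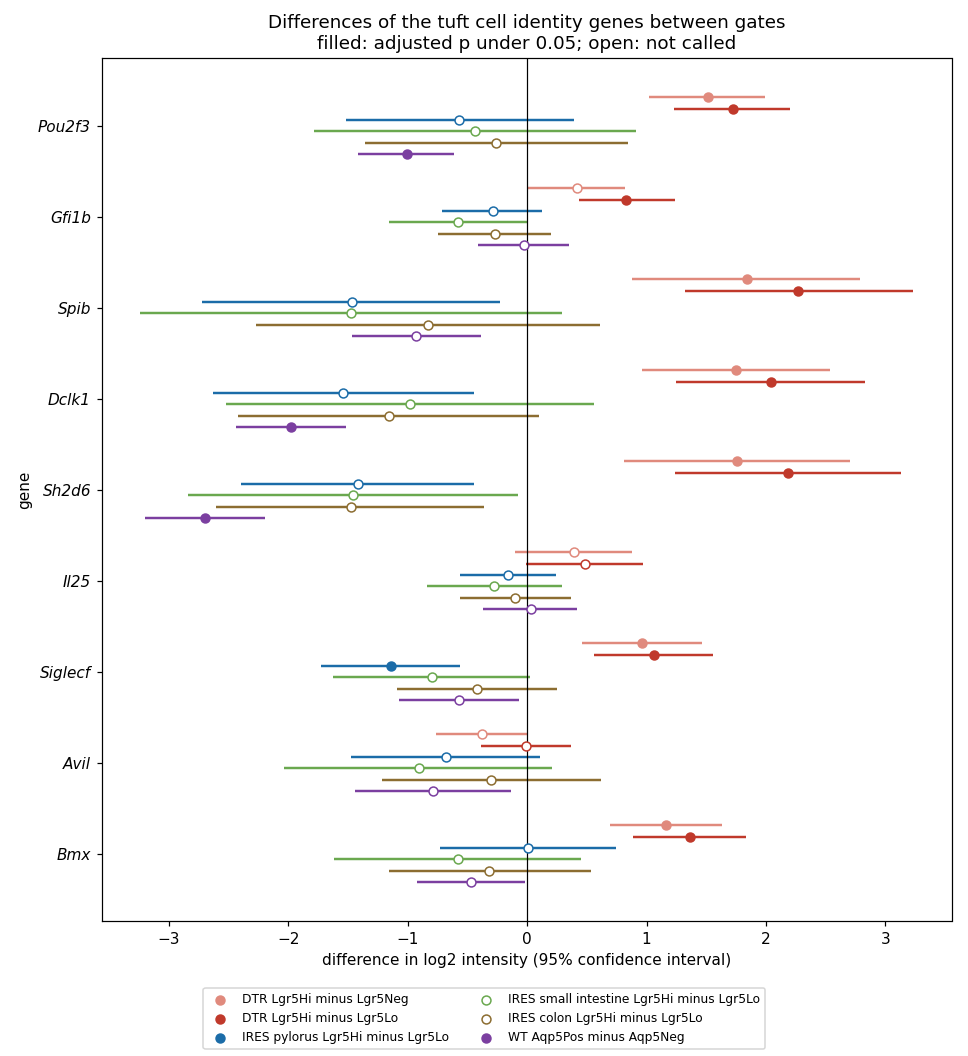
Difference in log2 intensity (horizontal axis) with its 95% confidence interval for each of the 9 genes (vertical axis) in 6 gate comparisons, filled where the adjusted p was under 0.05. The DTR differences lie above 0 for all genes except Avil, and the IRES and WT differences lie at or below 0 apart from Bmx in the IRES pylorus (0.01) and Il25 in WT (0.03).

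In the IRES pylorus the same gate names gave no rise. Of the 9 genes 0 were higher and 1, Siglecf, was lower in Lgr5Hi than in Lgr5Lo cells, where 1.49% of all genes were called (0.884% lower), and 8 of 9 differences were below 0 (median -0.68, and -1.14 without Lgr5Lo array 3). 4 genes had an unadjusted p under 0.05. This fit left the replicate numbers out, and with them as a block 4 genes were called, as given below. Siglecf read 4.29, 3.76, 3.91 and 4.22 in Lgr5Hi and 4.50, 5.42, 4.92 and 5.91 in Lgr5Lo cells, without overlap, and was 1.14 ± 0.28 lower, or 2.2-fold. Its log2 difference of -1.14 had an adjusted p of 0.0399 (limma). That call was lost in 6 of 8 fits that left out 1 array, namely without Lgr5Hi array 1 (0.0547), 2 (0.122), 3 (0.0696) or 4 (0.0737) and without Lgr5Lo array 2 (0.0875) or 4 (0.101), and it was lost in a fit of the 2 gates alone (0.169) and when arrays were shifted to a common median (0.0932).

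The Lgr5Hi array numbered 1 stood apart from the other 3. Dclk1 read 8.66 on it and 6.78, 4.68 and 6.15 on the others, against 8.29, 8.59, 7.15 and 8.40 in Lgr5Lo cells. Sh2d6 read 9.16 on it and 6.93, 5.63 and 6.20 on the others, against 8.84, 8.27, 7.95 and 8.53. Spib read 6.92 on it and 4.69, 2.94 and 4.20 on the others, against 7.17, 6.64, 4.93 and 5.89. On that array these 3 genes were as high as in Lgr5Lo cells, while Lgr5 was at 8.79, within the 8.08 to 9.12 of its group. Its mean over all 9 genes was 6.60, against 4.75 to 5.39 on the other Lgr5Hi arrays and 5.69 to 6.58 in Lgr5Lo cells.

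With all arrays the differences were -1.54 ± 0.53 for Dclk1 (adjusted p = 0.165, limma), -1.42 ± 0.47 for Sh2d6 (0.152) and -1.47 ± 0.60 for Spib (0.266). Without Lgr5Hi array 1, where 1.11% of all genes were called, all 3 were called, at -2.23 for Dclk1 (adjusted p = 0.0119), -2.15 for Sh2d6 (0.00163) and -2.22 for Spib (0.0379). Equally numbered arrays of this organ deviated together across genes. With the replicate number as a block 4 genes were called, where 2.54% of all genes were. They were Siglecf with Spib (adjusted p = 0.0221, limma), Dclk1 (0.0291) and Sh2d6 (0.0435). Pou2f3 read 6.69, 5.29, 5.13 and 4.38 in Lgr5Hi and 6.11, 6.87, 4.23 and 6.54 in Lgr5Lo cells, which overlapped (-0.57 ± 0.46, adjusted p = 0.664). Bmx read 5.75, 4.28, 3.64 and 4.14 against 3.93, 4.82, 3.89 and 5.17 (0.01 ± 0.35). Gfi1b (-0.29 ± 0.20), Il25 (-0.16 ± 0.19) and Avil (-0.68 ± 0.38) were not called either.

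Among the 28 further tuft cell genes 0 rose and 1 fell in this comparison. It was Gnat3, at 5.25 ± 1.74 (SD, n = 4) in Lgr5Hi and 8.18 ± 0.45 (n = 4) in Lgr5Lo cells, a difference of -2.93 ± 0.61 (adjusted p = 0.0157, limma). Beside it, 1 of 6 mast cell genes fell, the chymase gene Cma1 (-1.06 ± 0.25, adjusted p = 0.033), with a list mean of 2.75 to 4.07 in Lgr5Hi and 3.72 to 5.16 in Lgr5Lo cells. The pit mucous cell list was called for 0 of 5 genes, at 10.47 to 12.02 in Lgr5Hi and 12.12 to 12.43 in Lgr5Lo cells. The spread in this fit came from all IRES arrays, among them the whole colon arrays, which read Gkn1 at 13.12 and 4.92. That made a call for pit cell genes hard to reach, so the lack of one does not show equal levels. Of 7 cell cycle genes 2 fell, Birc5 and Aurka (median of the list -0.89), as did the keratin gene Krt8 and the tubulin gene Tubb3. The part of these markers was not tested.

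The bright-minus-dim difference thus stood above 0 for 8 genes in DTR and below 0 for 8 genes in the IRES pylorus, and the difference between the lines was tested as an interaction. It was above 0 for all 9 genes, with a median of 2.21. With all arrays 0 of the 9 were called (limma, 0.0135% of all genes called), and 7 had an unadjusted p under 0.05. The 3 genes called over all 22180 were the pit mucous cell genes Gkn1 (-2.72 ± 0.32, adjusted p = 0.000907, limma), Gkn2 (-2.61 ± 0.37, 0.00785) and Tff1 (-1.67 ± 0.26, 0.0169), which differed in the other direction. Among the 9, Siglecf came closest at 2.21 ± 0.40 (adjusted p = 0.0827). Spib differed by 3.75 ± 0.95 (0.416), Sh2d6 by 3.61 ± 0.82 (0.307), Dclk1 by 3.58 ± 0.84 (0.307) and Pou2f3 by 2.28 ± 0.69 (0.717). Without IRES Lgr5Hi array 1 the interaction was called for 4 genes, where 0.108% of all genes were called, Sh2d6 (4.33, adjusted p = 0.00338), Dclk1 (4.28, 0.00674), Spib (4.49, 0.0203) and Siglecf (2.29, 0.0368), and without IRES Lgr5Lo array 1 for Siglecf (2.44, 0.0237). With the replicate block it was called for Spib (0.0148) and Dclk1 (0.0455). Of the 28 further tuft cell genes 25 had an interaction above 0 (median 1.50), 21 had an unadjusted p under 0.05 and 0 were called. The 2 lines also differed in the pit mucous cell genes of their Lgr5Hi cells, at list means of 7.34 to 8.21 in DTR and 10.47 to 12.02 in IRES, whose part was not tested, and the line and the handling of its arrays cannot be told apart.

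**Figure D3:**
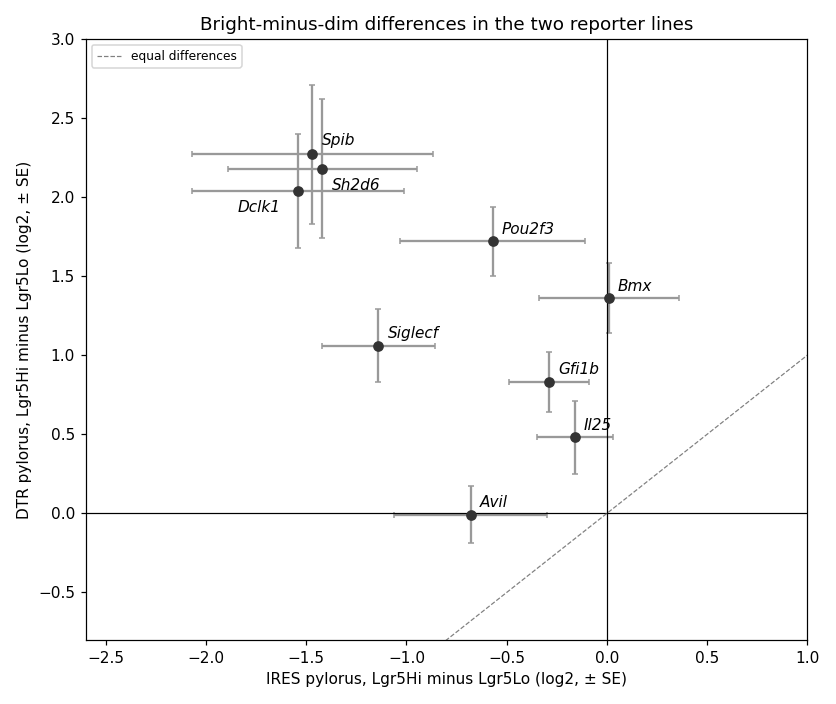
Lgr5Hi minus Lgr5Lo difference in log2 intensity in the DTR pylorus (vertical axis) against the same in the IRES pylorus (horizontal axis), with SE bars, for the 9 genes. All points lie above the dashed line of equal differences, and Spib, Sh2d6 and Dclk1 lie farthest from it, at 2.04 or more in DTR and -1.42 or less in IRES.

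In wildtype pylorus sorted by surface Aqp5, a gate that used no reporter, tuft cell genes were lower in the positive cells. Aqp5 followed this gate, at 8.82 ± 0.40 (SD, n = 4) in Aqp5Pos and 7.18 ± 0.19 (n = 4) in Aqp5Neg cells. Lgr5 was also higher in Aqp5Pos cells, at 8.38 ± 0.47 against 6.42 ± 0.17. In DTR, Aqp5 was at 10.44 ± 0.05 in Lgr5Hi and 7.70 ± 0.07 in Lgr5Neg cells, yet there tuft cell genes were higher in Lgr5Hi cells. The reason for the opposite directions was not tested. In WT 3 of the 9 genes fell and 0 rose, where 2.8% of all genes were called (2.25% lower), with a median difference of -0.79. Sh2d6 read 4.54, 4.55, 4.52 and 3.70 in Aqp5Pos and 6.64, 7.33, 7.02 and 7.12 in Aqp5Neg cells, a log2 difference of -2.70 ± 0.23, 6.5-fold (adjusted p = 0.00022, limma). Dclk1 read 4.43, 4.09, 3.93 and 4.15 against 5.81, 6.47, 5.81 and 6.44, a difference of -1.98 ± 0.21, 3.94-fold (adjusted p = 0.000764, limma). Neither gene overlapped between the gates, and on every Aqp5Pos array both lay within 1 log2 unit of the array medians.

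Pou2f3 read 4.12, 3.49, 3.96 and 3.68 in Aqp5Pos and 4.89, 5.03, 4.67 and 4.70 in Aqp5Neg cells, without overlap (-1.01 ± 0.19, adjusted p = 0.0153, limma). It lost the call without Aqp5Neg array 1 (0.0514) or 2 (0.0588), where 1.34% and 1.15% of all genes were called, and in 1 fit over all 42 arrays (0.117). Spib, at 3.65, 3.54, 3.10 and 2.59 against 3.71, 4.41, 4.33 and 4.14, did not overlap either but was not called (-0.93 ± 0.25, adjusted p = 0.0704). Siglecf (-0.57 ± 0.23), Avil (-0.79 ± 0.30) and Bmx (-0.47 ± 0.21) overlapped between the gates and were not called, and the differences of Gfi1b (-0.03 ± 0.18) and Il25 (0.03 ± 0.18) were smaller than their errors.

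Of the 28 further tuft cell genes 8 fell and 0 rose. Gnat3 differed by -3.88 ± 0.35 (adjusted p = 0.000327, limma) and Rgs13, a regulator of G protein signalling, by -3.43 ± 0.34 (0.000657). Fyb (-2.65 ± 0.25), Kctd12 (-2.29 ± 0.36), Sh2d7 (-1.37 ± 0.28), Alox5ap (-1.15 ± 0.23), Alox5 (-0.95 ± 0.23) and Trpm5 (-0.92 ± 0.16) completed the 8. Genes of mast cells and pit cells fell beside them. Of 6 mast cell genes 3 fell, Mcpt2 (-3.11 ± 0.38), Cpa3 (-2.02 ± 0.32) and Mcpt1 (-1.88 ± 0.35), with a list mean of 2.67 to 3.00 in Aqp5Pos and 3.36 to 4.39 in Aqp5Neg cells. The high-affinity IgE receptor genes of mast cells, Fcer1a (2.13 and 2.12) and Ms4a2 (3.56 and 3.78), were below the array medians in both gates. All 5 pit mucous cell genes fell (median -1.32), with list means of 10.02 to 11.00 and 12.00 to 12.11. The keratin genes Krt8 and Krt19 and 2 of 7 cell cycle genes, Birc5 and Rrm2, fell too. The part of these genes in the tuft cell gene differences was not tested.

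In the small intestine and colon of the IRES line 0 of the 9 genes were called between the Lgr5 gates (limma). Of all genes 0.185% were called in the small intestine and 0 in the colon, so that neither comparison called many genes of any kind. All 9 differences were below 0 in both organs, with medians of -0.80 (-0.50 without small intestinal Lgr5Lo array 2) and -0.32 (from -0.52 to -0.19 when 1 array was left out, the lowest without Lgr5Hi array 3 or Lgr5Lo array 2 and the highest without Lgr5Lo array 3), and 1 gene in each had an unadjusted p under 0.05. That gene was Sh2d6 in both. It read 6.13 and 5.89 in Lgr5Hi and 7.32 and 7.62 in Lgr5Lo cells of the small intestine, apart by -1.46 ± 0.66. In the colon it read 4.90, 5.85 and 5.40 against 6.63, 6.47 and 7.50, apart by -1.48 ± 0.54. Dclk1 was also apart in the colon, at 4.78, 5.51 and 5.26 against 6.09, 6.10 and 6.84 (-1.16 ± 0.61), and it overlapped in the small intestine, at 4.89 and 5.71 against 5.62 and 6.95.

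Across organs, 1 of the 9 genes was called, Avil. Between pyloric and small intestinal Lgr5Hi cells it was the only call of the 9, where 12.4% of all genes were called (4.67% higher in pylorus). The same held between pyloric and colonic Lgr5Hi cells, where 7.12% were called (2.9% higher). A count of 1 in 9 is near these shares, so the count is no result about the set. Avil read 7.31, 6.59, 6.57 and 6.44 in pyloric, 4.85 and 4.73 in small intestinal and 4.69, 4.78 and 5.33 in colonic Lgr5Hi cells. The pylorus was apart from both, by 1.94 ± 0.47 (3.84-fold, adjusted p = 0.00725, limma) and 1.79 ± 0.41 (3.46-fold, adjusted p = 0.0076). The first call was lost without either small intestinal array (0.0703 and 0.0759). Without pyloric array 3, Dclk1 was called as well, at 1.89 against the small intestine (0.0238) and 2.01 against the colon (0.0108), with Sh2d6 against the colon (2.05, 0.00909), and without pyloric array 4 Sh2d6 was called there too (1.86, 0.0389).

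In Lgr5Lo cells Avil read 6.77, 7.77, 7.20 and 7.91 in the pylorus, 5.29 and 6.11 in the small intestine and 4.86, 5.05 and 5.79 in the colon. The pylorus was again apart from both, by 1.71 ± 0.47 (adjusted p = 0.0247, limma, with 8.17% of all genes called and 3.74% higher) and 2.18 ± 0.41 (4.53-fold, adjusted p = 0.0016, with 6.34% called and 2.57% higher). The first of these calls was lost without pyloric array 2 (0.0573) or 4 (0.0517) and without small intestinal array 1 (0.326), and also with arrays shifted to a common median (0.0509). With the replicate number as a block Avil was not called there (1.59, adjusted p = 0.0609, limma) and Dclk1 was (2.13, 0.049). Equally numbered arrays of these organs correlated at 0.009 and 0.072 in their deviations, so the numbers did not pair them. Dclk1 and Sh2d6 did not overlap between the organs but missed the threshold against the colon, at 1.76 ± 0.57 for Dclk1 (adjusted p = 0.0704) and 1.53 ± 0.51 for Sh2d6 (0.0783). Without pyloric array 3, the lowest for Pou2f3, calls were gained for Pou2f3 (1.48, 0.0497, and 1.60, 0.02) and Dclk1 (2.14, 0.0465, and 2.08, 0.0373) against small intestine and colon in turn, and Siglecf gained one against the colon without colonic array 3 (1.13, 0.0427). Between small intestine and colon 0 of the 9 genes were called in Lgr5Hi cells (limma, 2.6% of all genes called) and 0 in Lgr5Lo cells (4.46%). At an unadjusted p under 0.05 there were 0 and 1, the latter being Gfi1b, higher by 0.55 ± 0.26 in the small intestine.

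In whole tissue Avil lay opposite to Dclk1, Sh2d6 and Siglecf. It read 8.40 and 8.79 in whole pylorus, above every sorted pyloric array. In Lgr5Hi cells it was lower by a log2 difference of -1.87 ± 0.47 (adjusted p = 0.0177, limma). It was the 1 call of the 9 genes there, a count near the share of 5.98% of all genes called (4.32% lower). Dclk1 (5.30 and 5.25), Sh2d6 (6.11 and 5.76) and Siglecf (3.42 and 3.89) were low in whole pylorus. In Lgr5Lo cells these 3 were higher than in whole tissue, where 2.12% of all genes were called (0.347% higher), Dclk1 by 2.83 ± 0.64 (7.11-fold, adjusted p = 0.0204, limma), Sh2d6 by 2.47 ± 0.58 (5.54-fold, 0.0241) and Siglecf by 1.53 ± 0.34 (2.89-fold, 0.0186). Each lost its call without either whole-tissue array, which left a lone array assumed to vary like the other groups (0.174 and 0.286 for Dclk1, 0.147 and 0.377 for Sh2d6, 0.29 and 0.144 for Siglecf). So did Avil (0.0932 and 0.262). Sh2d6 also lost it without Lgr5Lo array 1 (0.0576), and Dclk1 and Siglecf without array 2 (0.0577 and 0.0511). Pou2f3 gained a call without Lgr5Lo array 3 (2.20, 0.0126), and Dclk1 gained one between Lgr5Hi cells and whole tissue without Lgr5Hi array 3 (1.92, 0.0366). Siglecf also lost its call in a fit of the 2 groups alone (0.145) and with a common array median (0.0543). With the replicate block Dclk1 (2.03, adjusted p = 0.0124, limma) and Sh2d6 (1.66, 0.0401) were called as higher in Lgr5Hi cells than in whole tissue. Pou2f3 (2.21, 0.0192) and Spib (2.82, 0.00132) were so called in Lgr5Lo cells. Equally numbered sorted and whole arrays correlated at only 0.008 to 0.056 in their deviations, so these block calls rest on no pairing seen in the data. Genes of other cells differed beside the tuft cell genes. Of 7 fibroblast and smooth muscle genes 4 were lower in Lgr5Hi cells than in whole tissue (median -1.19) and 2, Dcn (-3.41 ± 0.51) and Acta2 (-1.79 ± 0.42), in Lgr5Lo cells (median -1.12). The macrophage gene Cd68 was lower in both (-2.05 ± 0.52 and -1.95 ± 0.52). In Lgr5Lo cells the macrophage gene Adgre1 (0.98 ± 0.24) and the mast cell gene Cma1 (1.28 ± 0.31) were higher than in whole tissue, as the 3 tuft cell genes were. The part of these markers was not tested.

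The 2 arrays labelled crypt showed no called difference from small intestinal Lgr5Hi cells for any of the 9 genes (limma, 13.4% of all genes called), and 0 had an unadjusted p under 0.05. Sh2d6 differed by -0.61 ± 0.66 and Spib by -0.79 ± 0.85. T cell genes averaged 5.18 and 5.25 on these arrays against 3.30 and 3.81 in Lgr5Hi cells.

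Avil also followed a different pattern over all arrays. Over the 42 arrays its Pearson correlation with the mean of the other 8 genes was 0.33, and with the mean of the 5 pit mucous cell genes 0.87. For Dclk1 these were 0.89 and 0.17, for Bmx 0.86 and 0.10, for Sh2d6 0.85 and 0.11, for Spib 0.84 and 0.00, for Pou2f3 0.83 and 0.10, for Siglecf 0.75 and 0.07 and for Gfi1b 0.71 and 0.23. Il25 was at 0.33 with the other 8 genes. The points share their groups, so the coefficients partly restate the group means. Pit cell genes are stomach genes, so the 0.87 of Avil partly restates the organ, and it was not taken within groups. In DTR Lgr5Hi, Lgr5Lo and Lgr5Neg cells the pit list averaged 7.92, 10.97 and 11.83, while Avil averaged 7.30, 7.32 and 7.69. In the IRES pylorus and WT both means were lower in Lgr5Hi or Aqp5Pos cells. After the group means were taken out, Dclk1 (0.88), Bmx (0.87), Sh2d6 (0.76), Pou2f3 (0.76) and Spib (0.74) still varied with the other 8 genes, Avil (0.32) did so weakly and Il25 (-0.12) did not. The closest pair was Dclk1 with Sh2d6, at 0.95 over levels and 0.86 within groups. On the whole colon array with stomach surface genes Avil read 7.43, against 4.90 on the other whole colon array. Both arrays entered the spread of the IRES fits and widened the errors of Avil there. Of the 5 measured villin relatives of Avil, Vill was called higher in the pylorus in all 4 comparisons of sorted pyloric cells with small intestine or colon, as Avil was. Gsn was called higher against the small intestine in both gates but not against the colon (0.37 ± 0.28 and -0.28 ± 0.28). Scin was called lower in the pylorus in 3 of the 4, by log2 differences of -3.28 ± 0.75 to -4.37 ± 0.75, and missed the threshold in Lgr5Hi cells against the small intestine (-1.39 ± 0.85). Vil1 and Svil were called in 0 of the 4. Gsn and Vill were lower than whole pylorus in both Lgr5Hi and Lgr5Lo cells, and Avil was called for Lgr5Hi cells, its difference in Lgr5Lo cells being -1.19 ± 0.47 (adjusted p = 0.229, limma).

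**Figure D4:**
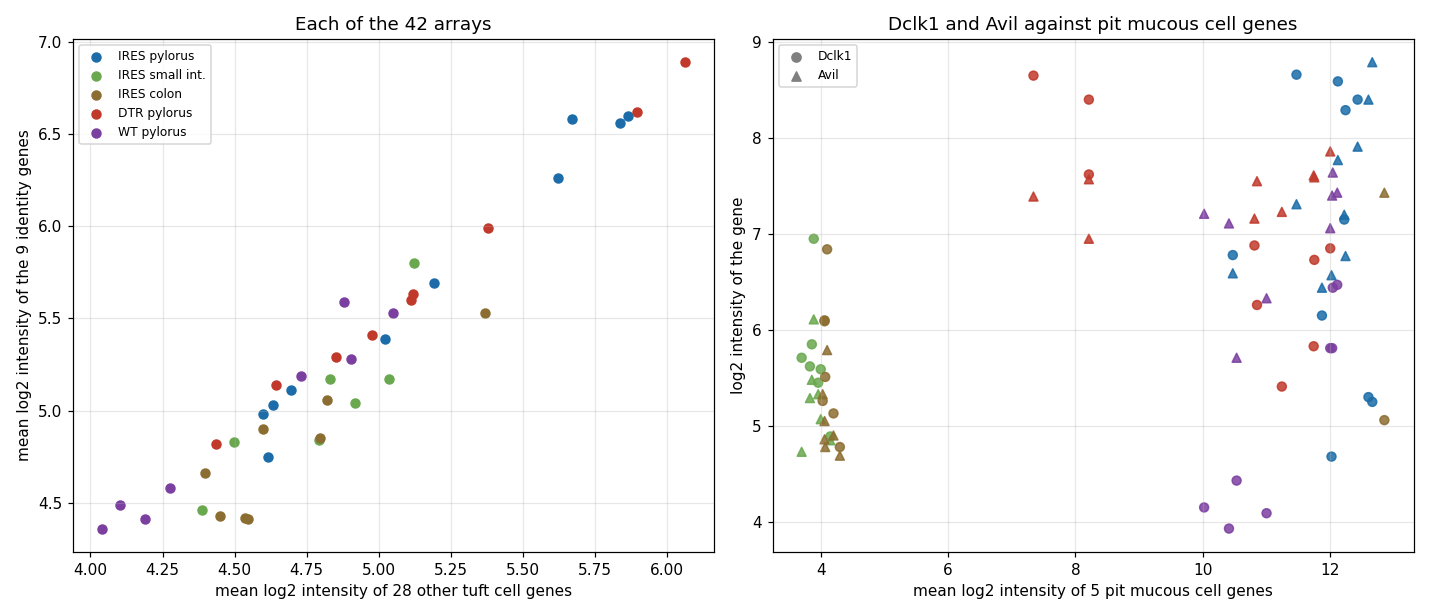
Left, the mean log2 intensity of the 9 genes (vertical axis) against that of 28 other tuft cell genes (horizontal axis), 1 point per array, coloured by line and organ. Right, log2 intensity of Dclk1 (circles) and Avil (triangles) against the mean of 5 pit mucous cell genes in the same colours. Avil is higher on arrays with pit cell genes (r = 0.87, which partly restates stomach against intestine), and Dclk1 shows little relation (r = 0.17).

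As a set, the 9 genes tracked the 28 further tuft cell genes, with a Pearson correlation of 0.96 between the 2 means over 42 arrays and 0.93 after group means were removed. Outside all gene lists, the 10 genes whose levels were most like the mean of the 9 over the 42 arrays were Pik3r5 (r = 0.90), Plcg2 (0.89), Rgs22 (0.83), Pygl (0.81), Lrmp (0.81), Strip2 (0.80), 1810046K07Rik (0.80), Rac2 (0.80), Pik3cg (0.76) and St18 (0.75). Pik3r5 encodes a regulatory subunit and Pik3cg the catalytic subunit of phosphoinositide 3-kinase gamma, and Plcg2 encodes a phospholipase C. Pik3r5 averaged 6.99 in DTR Lgr5Hi and 5.14 in Lgr5Lo cells, 5.98 and 6.47 in the same gates of the IRES pylorus, and 4.34 in Aqp5Pos against 5.12 in Aqp5Neg cells. Plcg2 averaged 6.70, 5.51, 5.52, 6.28, 4.65 and 5.58 in the same order.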

How the data were processed

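Transcripts of 42 samples were measured on Affymetrix mouse gene arrays, from RNA amplified as cDNA and labelled with biotin, per the labels. The authors deposited log2 intensities, 1 per probe set and array, made with RMA per the submitters' processing notes, which also name R 3.2.3, limma 3.26.8, oligo and Partek without their roles. Background correction and the summary of probes are thus those of the authors, and no detection calls were used. Log2 differences of genes near the background can understate a change. Of 41345 probe sets 23521 carried 1 symbol and gave 22180 genes, the probe set with the highest mean standing for a gene. Probe sets were named from the platform annotation and placed with RefSeq, GRCm38.p6.

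Each line had its own linear model, in limma 3.58.1 under R 4.3.3, with a mean for every group, eBayes moderation and p-values adjusted by Benjamini-Hochberg across the 22180 genes. The models were also run on simulated arrays with independent noise and no pairing, which cannot speak for paired arrays. The IRES and DTR pylorus were fitted together for the interaction. The 9 genes, the gene lists and the tests were chosen with earlier results of these data known. From each list up to 5 genes with the smallest p were named, and in WT all 8 tuft cell genes that fell. The most similar genes were those with the highest correlation with the mean z-score of the 9.

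Whether replicate numbers pair arrays was checked by correlating, over all genes, how far arrays of the same number lay from their group means. The coefficients were 0.162, 0.104, 0.273 and 0.296 for the pyloric gates of IRES and 0.176, 0.136 and 0.242 for its colon, so those numbers were taken to pair the arrays. The 2 small intestinal arrays of a gate deviate by equal and opposite amounts, so their pairs give 1 value, 0.373. The main fits used no block in any line, so the main IRES gate calls leave this pairing out, and the block was run as another setting. DTR gave -0.112 to 0.154 and WT -0.023 to 0.165, of mixed sign, and these numbers were not taken to pair the arrays. Between DTR Lgr5Hi and Lgr5Neg cells all were above 0 (0.105, 0.061 and 0.123). Unequally numbered arrays were not correlated as a reference, so the line drawn between paired and unpaired is a judgement. Other settings were a replicate block, 1 fit over all arrays or over the compared groups alone, eBayes with trend and robust settings, the mean of all probe sets, a filter on dim genes, a common array median, quantile normalization, and leaving out each array or the whole colon array numbered 1. The number of arrays per group limits the precision of every value.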

Additional observations from a re-analysis of the deposited data

Results flagged for a closer look

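Within the groups of 4 arrays, 36 sets of values (9 genes in 4 groups) were examined for an array far from its group, and chance alone marks about 1 in 20 such sets. 2 were marked. Gfi1b read 5.72 on the IRES pyloric Lgr5Hi array numbered 1, against 5.31 to 5.37 on the other 3, and this is the array on which Dclk1, Sh2d6 and Spib were also highest. Sh2d6 read 3.70 on the Aqp5Pos array numbered 4, against 4.52 to 4.55 on the other 3.

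Some genes were at or above the highest sorted array of the same organ on whole-tissue arrays that stood on neither side of a comparison. The whole colon arrays did enter the spread of the IRES fits. Il25 read 5.17 in the single whole small intestine array. On the whole colon array numbered 1, which carried stomach surface genes, Gfi1b read 5.45, Il25 4.93 and Avil 7.43. Avil was at 4.69 to 5.79 on the sorted colon arrays.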

How the results depend on the processing

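Directions held in every called result under each setting tried. Of 2305 pairs of a gene's difference and a setting, 2204 kept their side of the threshold, 56 lost a call, 45 gained one and 0 reversed a called difference, while 64 differences with no call on either side changed sign. In 1 fit over all 42 arrays the genes called of the 9 were 1 for DTR Lgr5Hi against Lgr5Lo (Sh2d6 remained), 2 for Lgr5Hi pylorus against colon, 2 and 4 for Lgr5Lo pylorus against small intestine and colon, and 3 for the interaction. Of all genes 0.595%, 10.3%, 12.3%, 10.6% and 0.0766% were called in turn. With the replicate block the genes called of the 9 were 4 for the IRES pyloric gates, 3 for pyloric Lgr5Hi against whole tissue (median difference 1.30), 5 for Lgr5Lo against whole tissue and 2 for the interaction. The shares of all genes were 2.54%, 7.63%, 3.93% and 0.0451%. In fits of the compared groups alone the genes called of the 9 were 0 for the IRES pyloric gates, and 2 and 3 for Lgr5Lo pylorus against small intestine and colon. The shares of all genes were 0.334%, 4.52% and 5.06%. A common array median gave 0 for the IRES pyloric gates (0.879% of all genes) and 0 for Lgr5Lo pylorus against small intestine (7.32%). Quantile normalization (7.46% of all genes) and the filter on dim genes (share not given) each gave 2 for Lgr5Hi pylorus against colon. Counts near these shares are no result about the set. The cause of the changes in count was not tested. The filter removed Bmx, whose mean was below the median gene. Under trend and robust settings Sh2d6 lost its DTR calls (adjusted p = 0.0775 and 0.0764, limma), and in WT a common median brought Spib to a call (0.0488). Dropping the whole colon array numbered 1 moved no count of the 9 genes.

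When 1 array at a time was left out, the count of called genes ran from 3 to 7 for DTR Lgr5Hi against Lgr5Neg and from 3 to 7 against Lgr5Lo, from 0 to 3 for the IRES pyloric gates, from 2 to 3 in WT, from 0 to 2 and from 1 to 3 for Lgr5Hi pylorus against small intestine and colon, from 0 to 3 and from 1 to 3 for Lgr5Lo, from 0 to 2 and from 0 to 4 for pyloric Lgr5Hi and Lgr5Lo against whole tissue, and from 0 to 4 for the interaction. Median differences ran from -0.41 to -0.05 for DTR Lgr5Lo against Lgr5Neg, from -1.14 to -0.52, -1.05 to -0.50 and -0.52 to -0.19 for the IRES gates of pylorus, small intestine and colon and from 0.72 to 1.60 for Lgr5Lo pylorus against colon. Counts over all genes then ran from 3001 to 3754, 325 to 1036 and 181 to 367 for DTR Lgr5Hi against Lgr5Neg, Lgr5Hi against Lgr5Lo and Lgr5Lo against Lgr5Neg, from 173 to 414, 2 to 89 and 0 to 1 for the 3 IRES gates, from 196 to 893 in WT, from 1124 to 2606 and 1049 to 1587 for Lgr5Hi pylorus against small intestine and colon, from 750 to 2231 and 815 to 1814 for Lgr5Lo, from 304 to 1307 and 48 to 796 for Lgr5Hi and Lgr5Lo against whole tissue, from 286 to 480 and 430 to 867 for small intestine against colon in Lgr5Hi and Lgr5Lo cells, from 1295 to 2184 for the arrays labelled crypt and from 1 to 24 for the interaction. In 1 fit over all arrays these counts went from 4062 to 1515, 1102 to 132 and 488 to 24 for DTR Lgr5Hi against Lgr5Neg, Lgr5Hi against Lgr5Lo and Lgr5Lo against Lgr5Neg, from 330 to 780, 41 to 155 and 0 to 20 for the IRES gates of pylorus, small intestine and colon, from 621 to 1170 in WT, from 577 to 944 and 990 to 1523 for small intestine against colon in Lgr5Hi and Lgr5Lo cells, from 1811 to 2720 and 1407 to 2352 for Lgr5Lo pylorus against small intestine and colon, from 470 to 951 for pyloric Lgr5Lo against whole tissue and from 3 to 17 for the interaction. In fits of the compared groups alone these counts were 714 for DTR Lgr5Hi against Lgr5Lo, 74 and 0 for the IRES pyloric and small intestinal gates, 1003 for Lgr5Lo pylorus against small intestine, 1928 for Lgr5Lo small intestine against colon, 157 for pyloric Lgr5Lo against whole tissue, 4674 in place of 2981 for the arrays labelled crypt and 1 for the interaction. The block gave 564 for the IRES pyloric gates, 871 for pyloric Lgr5Lo against whole tissue and 10 for the interaction. A common median gave 195 for the IRES pyloric gates, the mean of all probe sets 2 for the colon gates, and the filter on dim genes 734 for DTR Lgr5Lo against Lgr5Neg and 11 for the small intestinal gates. Without the whole colon array numbered 1 there were 518 and 69 for the pyloric and small intestinal gates. Outside the IRES line, and between sorted and whole pylorus or pylorus and other organs, the numbers were not taken to pair the arrays. Genes near the array median, such as Bmx and Siglecf, leave little room to see a fall, although Siglecf was called lower in IRES pyloric Lgr5Hi cells.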
